A study of Mus musculus with 4 samples.

Results

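The regions described here were 1 kb stretches of the mouse autosomes at which mature B cells were less methylated than hematopoietic stem and progenitor cells (HSPCs) in wild-type mice and also in Sca1-BCL6Δ mice. A region was eligible when the reads summed over its CpGs came to at least 10 in each of the 4 libraries, counting only CpGs with fewer than 50 reads in every library. A read was counted once for each CpG it covered, and these summed counts are called CpG reads below. The methylation level was the methylated share of the CpG reads. Of 94023 eligible regions, 274 were selected because B cells were at least 25 percentage points below HSPCs in both genotypes, which is 0.291% of the eligible regions. The B cell and HSPC levels therefore chose the regions, and the difference between these cell types is given below as a description, with no test.

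The study profiled DNA methylation by reduced representation bisulfite sequencing, in which bisulfite-treated ends of restriction fragments (here TaqI and MspI) are read. HSPCs were Sca1+Lin- cells from bone marrow and B cells were B220+ cells from peripheral blood. Sca1-BCL6Δ mice carried mouse Bcl6 joined to a fluorescent reporter (IRES-eGFP) between loxP sites under the Sca1 (Ly6a) promoter, and Cre expressed from the Cd79a locus (mb1-Cre) removed the cassette. The design thus exposed stem and progenitor cells to Bcl6, a transcriptional repressor of germinal centre B cells, and deleted the transgene in the B lineage. Transgenic mice were made in CBAxC57BL/6J eggs, which is the background the labels give for both genotypes. A pair of independent transgenic lines was made, and the sources used here do not say from which line the mice of a library came. Each of the 4 libraries held DNA pooled from 6 to 9 mice, with 1 library per condition, so that no difference below has a replicate check and the spread between mice is unknown.

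Methylation of CpGs is copied at cell division and can be lost when it is not maintained or when it is removed by oxidation. In blood development, loss is typical of enhancers and of the borders of CpG-rich promoters that come into use in a lineage, while most CpG-poor DNA stays methylated and most CpG islands stay unmethylated in every cell type. Methylation of a bulk sample is a share of DNA molecules, so a change in the mix of cells and a change inside the cells cannot be told apart from levels alone.

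The wild-type HSPC library stood apart from the other 3. Its median level over the eligible regions was 68.4%, against 86.7% in the HSPCs of Sca1-BCL6Δ mice and, for B cells, 89.8% (wild-type) and 90.0% (Sca1-BCL6Δ). Mean coverage per CpG was 7.48 reads for HSPCs and 11.0 for B cells of wild-type mice, against 5.45 and 6.48 for those of Sca1-BCL6Δ mice. With the Sca1-BCL6Δ HSPC library as the reference for both B cell libraries, which leaves the wild-type HSPC library out, 812 regions passed the limit of 25 points, and 231 of the 274 were among them. The labelled cell types could not be checked with marker genes. Of 11 B cell marker genes only Pax5 had a promoter that could be placed, and of 8 HSPC markers 5 had one (Flt3, Gata2, Kit, Meis1 and Runx1). Within 50 kb of the Pax5 start lay 14 eligible regions and within 50 kb of the HSPC marker starts 72, and 0 of the 274 were among either set. The selected share over all eligible regions was 0.291%, so sets this small would rarely hold a selected region. The counts therefore say nothing of cell identity.

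Some of the selected regions held the promoter of a gene. The 250 bases before the start site are shown for the 3 promoters that lost at least 25 points in both genotypes over CpGs read in each of the 4 libraries, with at least 10 CpG reads per library, because these are the stretches in which a lost mark can be read against a known start. The letters are RefSeq's, from assembly GRCm38.p6, 5′ to 3′ in the direction of the gene and ending at the base before the start, and capitals mark the CpGs that the libraries measured.
Fam120b: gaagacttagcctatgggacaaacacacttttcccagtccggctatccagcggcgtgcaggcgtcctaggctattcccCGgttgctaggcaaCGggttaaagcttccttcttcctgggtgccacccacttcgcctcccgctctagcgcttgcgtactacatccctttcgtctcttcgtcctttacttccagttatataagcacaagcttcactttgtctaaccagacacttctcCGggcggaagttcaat
Ppwd1: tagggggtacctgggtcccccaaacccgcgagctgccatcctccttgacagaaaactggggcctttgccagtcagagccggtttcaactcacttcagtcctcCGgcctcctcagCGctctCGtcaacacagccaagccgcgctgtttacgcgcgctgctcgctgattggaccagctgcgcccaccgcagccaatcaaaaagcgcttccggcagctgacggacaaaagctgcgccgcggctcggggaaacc
Nars2: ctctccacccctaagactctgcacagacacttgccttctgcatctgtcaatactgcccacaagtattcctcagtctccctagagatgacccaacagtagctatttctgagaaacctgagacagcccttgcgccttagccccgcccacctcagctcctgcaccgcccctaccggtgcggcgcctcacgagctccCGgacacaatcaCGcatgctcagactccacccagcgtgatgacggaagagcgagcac

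Fam120b encodes a coactivator of the nuclear receptor PPARγ. Its 3 measured CpGs were all the CpGs of the selected region chr17:15533001-15534000 (mm9), and together in wild-type mice they were methylated in 78.8% of 33 CpG reads from HSPCs and 11.5% of 52 from B cells, and in Sca1-BCL6Δ mice in 66.7% of 15 and 0.0% of 11. Most reads came from the CpG closest to the start, and the other 2 CpGs had 1 read each in Sca1-BCL6Δ B cells. A count of 0 methylated reads among 11 is therefore a weak limit on the level in that library.

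At Ppwd1, which encodes a spliceosome-associated peptidyl-prolyl isomerase, the 3 measured CpGs went from 33.3% to 7.27% in wild-type and from 38.9% to 3.70% in Sca1-BCL6Δ cells. At Nars2, the mitochondrial asparaginyl-tRNA synthetase, 2 CpGs went from 50% to 13.9% and from 40.0% to 14.3%. These CpG reads came from few molecules: at Ppwd1 each CpG had 6 reads in either HSPC library, and at Nars2 each had 7 and 5. Across the 3 promoters the HSPC levels lay between 33.3% and 78.8%, and all were at 14.3% or less in both B cell libraries.

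Other promoters were covered at different CpGs in different libraries, and their levels do not compare like with like. At Atg3, which encodes the E2-like enzyme that couples LC3 to lipid in autophagy, the measured promoter CpGs together went from 55.6% to 9.89% in wild-type and from 35.5% to 0.0% in Sca1-BCL6Δ cells. At the 6 of these CpGs with reads in each library, levels went from 25% to 14.5% and were 0.0% in both Sca1-BCL6Δ libraries. At Nfe2l1, a transcription factor of proteasome genes, the selected region chr11:96690001-96691000 went from 66.7% to 2.08% and from 25% to 0.0%, but both wild-type libraries were at 0.0% at the 2 CpGs read in each library. Over all 274 regions, 251 kept a loss of at least 25 points in both genotypes when only CpGs read in each library were counted, and 23 did not.

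Zic5, a zinc finger factor of neural development, had its 4 CpGs read in each library: chr14:122865001-122866000 was at 56.2% in wild-type and 85.7% in Sca1-BCL6Δ HSPCs and at 28.8% and 35% in the B cells. Its HSPC levels rested on 4 and 6 separate reads.

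Over all 274 regions the levels in HSPCs were intermediate to high. In wild-type HSPCs they ran from 29.2% to 100% with a median of 66.7%, and in Sca1-BCL6Δ HSPCs from 25% to 100% with a median of 72.7%. In B cells the wild-type levels ran from 0.0% to 63.3% with a median of 23.9%, and those of Sca1-BCL6Δ mice from 0.0% to 71.4% with a median of 20%. Most regions thus ended at a low but not empty level: 27 of the 274 were at 10% or less in both B cell libraries and 89 at 20% or less in both. At the other end, 49 were at 80% or more in both HSPC libraries.

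**Figure D1:**
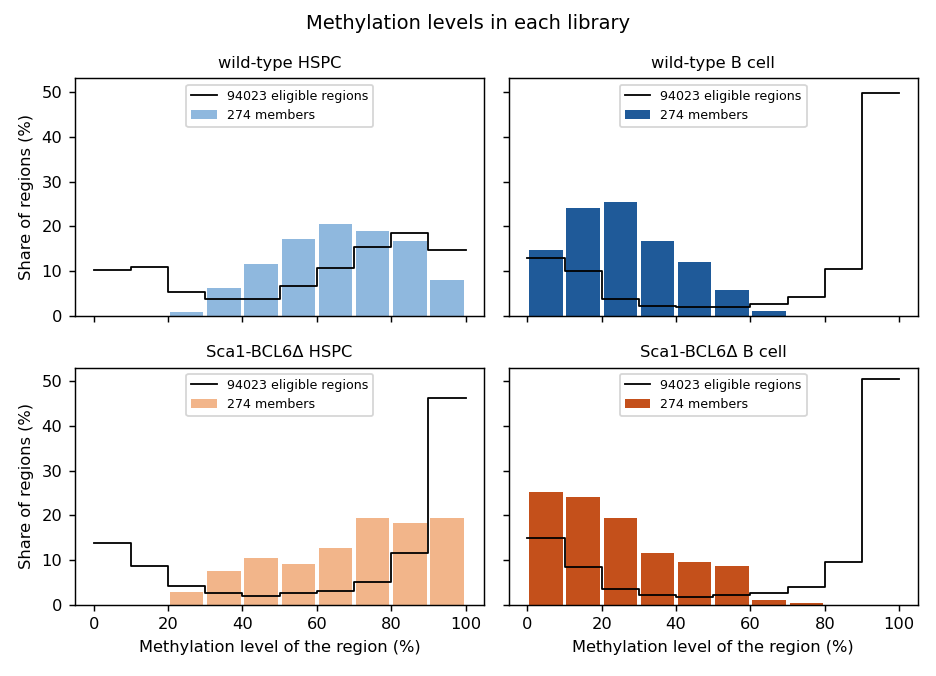
Histograms of the methylation level (%, bins of 10 points) in each library, as the share of regions (%); bars are the 274 selected regions and the black line the 94023 eligible regions. The eligible regions pile up near 100% except in wild-type HSPCs, while the selected regions are spread over the upper range in HSPCs and lie mostly under 40% in B cells.

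The loss had a median of 37.0 points in wild-type and 44.4 points in Sca1-BCL6Δ mice. Taking for each region the smaller of its 2 losses, the median was 34.0 and the highest 80.4 points, with 86 regions at 40 points or more and 35 at 50 points or more. The loss was larger in Sca1-BCL6Δ mice at 181 regions (66.1%) and in wild-type mice at 93, and it was larger in Sca1-BCL6Δ mice at 69.3% of all eligible regions. The wild-type HSPC library, whose median over the eligible regions was low, enters 1 side of that comparison, and its part in the result was not tested. At the limit itself, 10 regions had a smaller loss of exactly 25 points, the first 3 in genome order being chr3:101090001-101091000, chr7:17428001-17429000 and chr7:81700001-81701000. The 3 just outside had 24.9 points each (chr1:88539001-88540000, chr17:45358001-45359000 and chr10:20033001-20034000), so that the border runs through a continuous range.

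Whether the 2 genotypes lost methylation at the same places can be read by choosing regions on 1 genotype and reading the other, which shares no library with the choice. In wild-type mice 1195 eligible regions (1.27%) lost at least 25 points. Of these, 22.9% (95% Wilson interval 20.6% to 25.4%, covering the counting of regions only) also lost at least 25 points in Sca1-BCL6Δ mice, against 2.4% of all eligible regions. In Sca1-BCL6Δ mice 2258 regions (2.4%) passed the limit, and 12.1% of them (10.9% to 13.5%) also passed in wild-type mice, against 1.27% of all. The share was thus several times the background, while most regions chosen on 1 genotype did not pass in the other. The median loss in Sca1-BCL6Δ mice of the regions chosen on wild-type was 7.21 points, against 0.0 over all. In wild-type mice the median loss of those chosen on Sca1-BCL6Δ was -1.75 points, a higher level in B cells, against -8.30 over all. Both directions count the same 274 regions, so they describe 1 overlap and are not 2 separate readings.

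A region can only lose 25 points if it starts at 25% or more, and regions low in HSPCs dilute the background. Among regions at 25% or more in the HSPCs of the genotype being read, 36.2% of 756 chosen on wild-type mice passed in Sca1-BCL6Δ mice, against 3.19% of all such regions. In the other direction it was 15.9% of 1723 against 1.67%. Above 25% the sets were not matched on HSPC level or depth. Regions of 80% to 100% in both HSPC libraries, 29220 of the eligible ones, were selected in only 0.168% of cases. The part of these differences in the excess over the background was not tested. Without any limit on size, 63.0% of the regions chosen on wild-type were lower in B cells than in HSPCs in Sca1-BCL6Δ mice, against 39.5% of all, and 46.0% of those chosen on Sca1-BCL6Δ were lower in wild-type, against 25.3% of all. Over all eligible regions the wild-type B cell level exceeded the wild-type HSPC level by a median of 8.3 points. This shift was not the same at every level: the lower quartile was 26.4% in wild-type HSPCs and 24.3% in wild-type B cells. Its part in the wild-type differences given here was not tested.

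**Figure D2:**
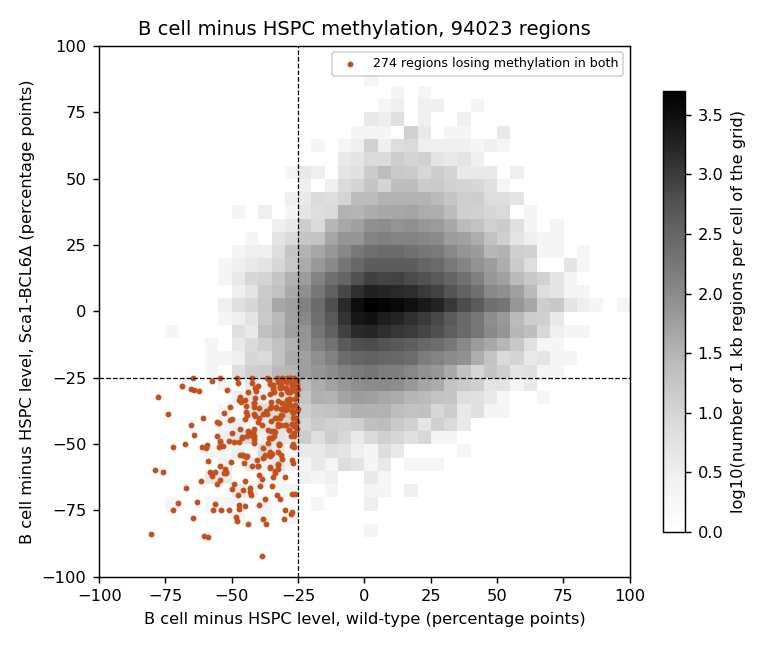
B cell minus HSPC methylation level (percentage points) in wild-type (horizontal) and Sca1-BCL6Δ mice (vertical); grey cells count the 94023 eligible regions on a log10 scale, dashed lines mark a loss of 25 points and orange points are the 274 selected regions. The cloud of all regions sits to the right of 0 on the wild-type axis and around 0 on the other, and the selected regions fill the lower left corner by construction.

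Described next are the 15 regions with the largest smaller loss among the 85 that had 20 or more CpG reads in each library. Their separate reads were fewer, down to 7 in a library at chr10:120889001-120890000 and 9 at chr5:124669001-124670000. Positions are in mm9, and distances are to the nearest promoter that could be placed on the CpG map, since other genes can lie closer. No gene model of the same build was used, so regions are not assigned to exons or introns.

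First was chr8:26214001-26215000, at 78.1% in HSPCs and 7.89% in B cells of wild-type mice and at 77.3% and 5.08% in those of Sca1-BCL6Δ mice. Of its 6 CpGs, 5 had reads in every library, and the CpG with the most reads went from 90.0% of 20 reads to 0.0% of 20 in wild-type and from 87.5% of 16 to 0.0% of 18 in Sca1-BCL6Δ cells. Of the 5, 4 were methylated in 66.7% or more of the HSPC reads of both genotypes, and the loss covered the whole run. The second, chr19:53517001-53518000, between Smndc1 and Dusp5 (a phosphatase that inactivates ERK), went from 78.6% to 15.5% in wild-type and from 94.6% to 22.7% in Sca1-BCL6Δ cells.

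The fifth was chr8:123301001-123302000, which lay 41.2 kb downstream of the start of Irf8, the interferon regulatory factor that takes part in B cell and myeloid lineage choice. It was at 74.3% and 16.7% in wild-type HSPCs and B cells and at 69.4% and 7.50% in the Sca1-BCL6Δ libraries. Only CpGs more than 50 bp apart were then counted, here and below among those read in each library. Their reads are mostly separate. The 95% Wilson interval was 57.0% to 93.4% in wild-type HSPCs and 12% to 44.9% in wild-type B cells. In Sca1-BCL6Δ mice it was 41.7% to 84.8% in HSPCs and 3.50% to 36% in B cells. A second selected region, chr8:123271001-123272000, lay 11.2 kb downstream of the same start and went from 65.7% to 20.6% in wild-type and from 90.0% to 25.9% in Sca1-BCL6Δ cells. Its first CpG was the exception, at 47.1% in wild-type HSPCs and 50% in wild-type B cells, while the other 3 CpGs were lower in the B cells of both genotypes. These 3 CpGs had only 1, 2 and 6 reads in Sca1-BCL6Δ HSPCs.

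The other regions in this group lay near genes of several kinds. Creb3l2, a membrane-bound transcription factor of the secretory pathway, had its start 13.6 kb from chr6:37378001-37379000, where levels went from 65.9% to 13.3% in wild-type and from 76.5% to 17.0% in Sca1-BCL6Δ cells. Pitpnm2, a phosphatidylinositol transfer protein, lay 30.3 kb from chr5:124669001-124670000, which went from 85.7% to 26.6% and from 93.3% to 8.33%. Ankrd6, an ankyrin repeat protein of Wnt signalling, lay 11.3 kb from chr4:33026001-33027000, which went from 78.4% to 21.2% and from 85.2% to 10.4%.

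The region 70.5 kb from Afap1, an actin-binding adaptor of Src kinase, was nearly the same in both genotypes: chr5:36306001-36307000 went from 82.1% to 20.3% and from 83.3% to 19.5%. The region 41.8 kb from Selenow, chr7:16549001-16550000, reached 12.1% and 3.12% in the B cell libraries from 68.4% and 75.6%. At chr5:123774001-123775000 the levels went from 75.6% to 25.3% and from 76.9% to 20%. This stretch lay between Psmd9 and Mlxip, with Bcl7a, a subunit of the BAF remodelling complex, among the genes that the gene order puts between them. The rest of the 15 were alike in size. The region 6.4 kb from Cldn14, a tight junction claudin, went from 73.9% to 14.3% and from 77.3% to 25.8% (chr16:94015001-94016000). The region 40.1 kb from Acsl1, a long-chain acyl-CoA synthetase, went from 81.8% to 14.3% and from 68.0% to 17.9% (chr8:47596001-47597000), and that 21.4 kb from Pdlim1, a cytoskeletal adaptor, from 80.5% to 29.5% and from 66.7% to 17.6% (chr19:40367001-40368000). Between Sphk1, a sphingosine kinase, and Prcd, chr11:116468001-116469000 went from 69.4% to 13.2% and from 71.4% to 10.9%. The region chr10:120889001-120890000, 134 kb from the innate immune kinase gene Tbk1, went from 73.9% to 19% and from 75% to 23.8%. Last but 2 was chr14:34003001-34004000, with no placed start within 250 kb, which went from 89.1% to 29.5% and from 71.4% to 21.2%.

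Over all 15 regions the HSPC levels were between 65.9% and 94.6% and the B cell levels between 3.12% and 29.5%, and the ranges of the 2 cell types did not overlap, which the choice of the largest losses makes likely.

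**Figure D3:**
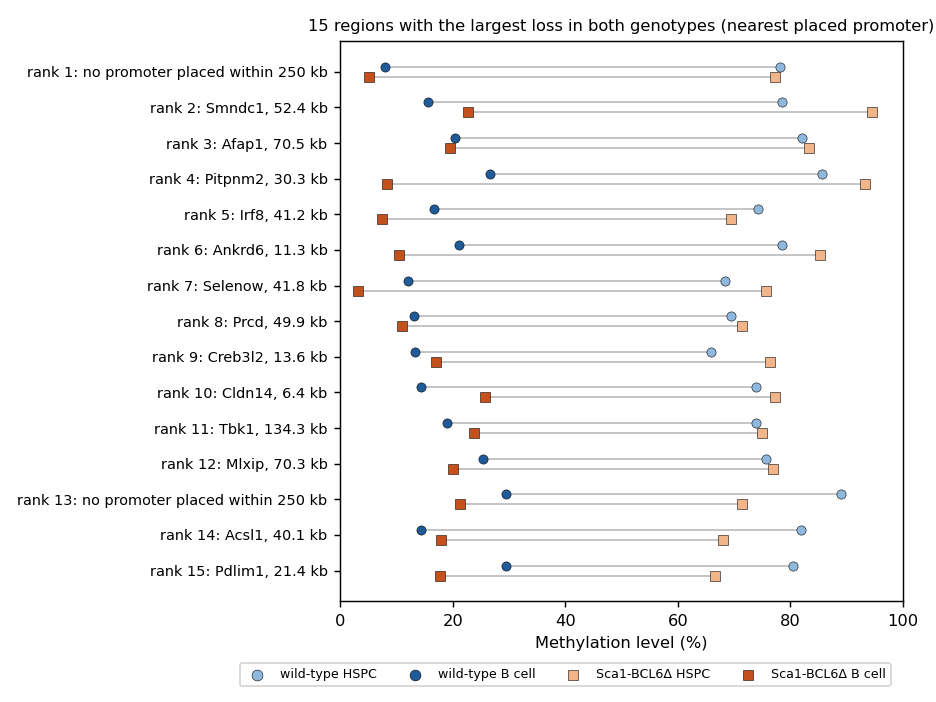
Methylation level (%) in the 4 libraries for the 15 regions with the largest smaller loss among those with 20 or more CpG reads in each library, labelled by the nearest placed promoter and its distance; circles are wild-type, squares Sca1-BCL6Δ, light symbols HSPCs and dark symbols B cells. In each row the HSPC symbols lie to the right of 60% and the B cell symbols to the left of 30%.

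The 5 regions with the most CpG reads over the 4 libraries come next, a count that many CpGs per read raise. The first, chr4:8462001-8463000, held 21 CpGs and went from 39.2% to 7.72% in wild-type and from 39.2% to 0.0% in Sca1-BCL6Δ cells, on 36, 51, 15 and 13 separate reads in these 4 libraries. Counting only CpGs more than 50 bp apart, its smaller loss was 14.5 points in place of 31.4, below the limit of 25. At chr14:22807001-22808000, 1.3 kb downstream of a start of the zinc finger gene Zfp503, 25 CpGs together went from 35.6% to 8.61% and from 30.4% to 1.41%. The level was not even along that region: at the CpG with the most wild-type HSPC reads it was 40.0% in both wild-type libraries, and the loss lay in a cluster of 7 CpGs near the far end, 6 of them at 75% in wild-type HSPCs, where each had 4 reads. Its smaller loss was 27.0 points over all CpGs and 14.1 over CpGs more than 50 bp apart. At chr9:90090001-90091000 the B cell levels stayed at 39.4% and 45.8%, from 76.6% and 83.3%.

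At chr7:133421001-133422000, between Xpo6 and Spns1 with the T cell adaptor gene Lat among the genes between them, levels went from 43.8% to 4.42% and from 67.8% to 1.89%. Its CpGs differed in HSPCs, from 0.0% at the first CpG to 73.3% at another in the wild-type library, while in wild-type B cells no CpG exceeded 9.52%. At chr4:151932001-151933000, 80.2 kb from Nphp4, levels went from 44.2% to 15.9% and from 45.6% to 11.2% over all CpGs. The CpG with the most reads went from 50% of 32 reads to 15.6% of 32 in wild-type and from 63.6% of 22 to 3.85% of 26 in Sca1-BCL6Δ cells. The 2 CpGs kept when only those more than 50 bp apart are counted went from 38.5% to 40% in wild-type, so the loss was not shared by all CpGs of this region.

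Further regions are given as single examples, picked after their values were seen and for what the nearby gene is known to do. They say nothing of how often such genes lie near selected regions, and the marker lists above had no selected region within 50 kb. Irf4 encodes the interferon regulatory factor needed for plasma cell formation, and chr13:30856001-30857000, 15.4 kb downstream of its start, went from 57.9% to 17.6% in wild-type and from 72.7% to 14.3% in Sca1-BCL6Δ cells. Klf2 encodes a zinc finger factor of lymphocyte quiescence and homing, and chr8:74844001-74845000, 1.5 kb downstream of its start, went from 62.7% to 18.5% and from 79.5% to 32.6%. Pou2f2 encodes Oct-2, the octamer factor of B cells, and chr7:25916001-25917000, 0.98 kb from its start, stayed at 47.0% and 50% in B cells from 87.1% and 91.7% in HSPCs. The depth behind these values was low in places: 11 separate reads at the Irf4 region in Sca1-BCL6Δ HSPCs and 7 at the Pou2f2 region in Sca1-BCL6Δ B cells.

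Pax5, the identity factor of the B lineage, had no selected region within 50 kb, but a pair lay farther upstream, between Zcchc7 and Grhpr. The region chr4:44952001-44953000, 229 kb upstream of the Pax5 start, went from 75% to 16.7% in wild-type and from 75% to 14.3% in Sca1-BCL6Δ cells. The region chr4:44980001-44981000, 257 kb upstream, went from 72.2% to 16.7% and from 47.1% to 5.26%. Hhex, a homeobox factor of blood progenitors, lay 37.2 kb from chr19:37546001-37547000, which went from 71.4% to 19.2% and from 68.4% to 7.41%. The largest smaller loss of all, 80.4 points, was at chr11:11760001-11761000 between Fignl1 and Grb10, where 2 CpGs went from 92.9% to 12.5% and from 90.0% to 6.25%. That loss rested on 7 and 12 separate reads in wild-type and on 5 and 8 in Sca1-BCL6Δ cells.

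The next 3 examples, picked in the same way, lie near genes of signalling in lymphocytes. At chr10:39133001-39134000, 43.9 kb from Fyn, a Src-family kinase, levels went from 79.2% to 13.8% in wild-type and from 72.7% to 30% in Sca1-BCL6Δ cells. At chr4:149016001-149017000, 33.7 kb from Pik3cd, the phosphatidylinositol kinase subunit of leukocytes, they went from 64.3% to 37.0% and from 80% to 11.1%. At chr12:113907001-113908000, 5.0 kb from the kinase gene Akt1, they went from 40% to 12.5% and from 85.7% to 10%. The Fyn region had 12 and 33 separate reads in wild-type HSPCs and B cells and 6 and 5 in those of Sca1-BCL6Δ mice. The Akt1 region had 5 and 28 in wild-type and 7 and 5 in Sca1-BCL6Δ cells. None of the 3 regions was called between genotypes.

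Among other regulators, Cbfa2t3, a corepressor of blood progenitors, lay 26.6 kb from chr8:125175001-125176000, which went from 76.9% to 45.8% and from 81.5% to 25.9%. Zfp36, which promotes decay of cytokine mRNAs, lay 2.3 kb from chr7:29166001-29167000, which went from 29.2% to 2.90% and from 40% to 7.14%, with a smaller loss of 24.8 points over the CpGs read in each library. The Zfp36 region had 4 separate reads in Sca1-BCL6Δ HSPCs. Where HSPC levels were high the B cell levels tended to stay higher too. The median wild-type B cell level was 45.5% in the 49 regions at 80% to 100% in both HSPC libraries and 8.33% in the 9 regions at 25% to 40%. The limit on the difference forces low B cell levels where HSPC levels are low and allows higher ones where they are high. The trend is therefore no separate result.

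At promoters the depth of single windows decided what could be said. The region at the Lta promoter, chr17:35342001-35343000, went from 52.1% to 16.5% in wild-type and from 72.2% to 13.3% in Sca1-BCL6Δ cells. Lta encodes the cytokine lymphotoxin α. Within the 250 bases before its start, however, the Sca1-BCL6Δ levels were 33.3% of 9 CpG reads in HSPCs and 42.9% of 7 in B cells, and only the wild-type levels fell, from 43.8% to 11.1%. At E2f2, a cell cycle transcription factor, the region went from 72.7% to 32.7% and from 100% to 41.7%, with 5 and 8 separate reads in the Sca1-BCL6Δ libraries. Within the 250 bases before its start only 1 CpG was measured, with 0 reads in Sca1-BCL6Δ HSPCs. A loss in Sca1-BCL6Δ mice could therefore not be read in that window.

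Promoters were not where most of the selected regions lay. Of the 266 regions on chromosomes with placed promoters, 13 (4.89%) overlapped a promoter, against 10.6% of all eligible regions. Eligible regions at 25% or more in both HSPC libraries, which are the ones that could be selected, overlapped a promoter in 0.964% of cases. Within 5 kb of a placed start lay 14.3% of the selected regions and 7.85% of those that could be selected, and within 50 kb 49.6% and 46.2%. The selected regions thus lay within 5 kb of a start more often than the regions that could be selected, with little difference at 50 kb. Of the regions that gained at least 25 points in both genotypes, 10.2% lay within 5 kb and 47.6% within 50 kb. These sets were not matched on HSPC level. Only 42.8% of coding genes could be placed, and the distances are upper limits.

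The selected regions had a median of 4 covered CpGs, against 5 over all eligible regions, and 6.20% of them held 10 or more, against 21.3%. Among regions at 25% or more in both HSPC libraries, however, the selected share was 0.409% with 1 to 2 covered CpGs, 0.407% with 3 to 5, 0.352% with 6 to 9 and 0.494% with 10 to 19, and 0.830% with 20 or more, where 2 regions were selected. By their HSPC level, regions of 40% to 60% in both HSPC libraries were selected most often, at 1.79% of 1564, and regions of 80% to 100% least often, at 0.168% of 29220. Per chromosome, between 2.12 and 4.45 of each 1000 eligible regions were selected, the lowest on chromosome 1 and the highest on chromosome 7. Of the 1232 CpGs in the selected regions, the limit of 50 reads left out 2.

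The neighbourhood of the selected regions was not used by their choice. Eligible regions 1 kb away on either side numbered 71, and their median levels were 22.4% (HSPCs) and 15.6% (B cells) in wild-type mice and 16.3% and 17.6% in Sca1-BCL6Δ mice. By these medians the nearest neighbours were weakly methylated in all 4 libraries already. Only 70 of the 274 selected regions had an eligible region 1 kb away, so the rest could not be read in this way. Of the 71, 33.8% (95% Wilson interval 23.9% to 45.4%) were at 20% or less in all 4 libraries. The share was 11.1% among 14507 neighbours of all regions at 25% or more in both HSPC libraries, and 14.8% among 189 neighbours of the 830 regions that gained at least 25 points in both genotypes. At 2 kb it was 28.8% (19.3% to 40.6%), against 14.4% in the comparison set and 21.2% (15.7% to 27.9%) around the gaining regions. From 3 to 5 kb it was between 10% and 14.8%, against 14.8% to 15% and 15.6% to 20.8%. The neighbours at 1 kb had a median of 9 covered CpGs, against 5 for the neighbours of the comparison set.

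**Figure D4:**
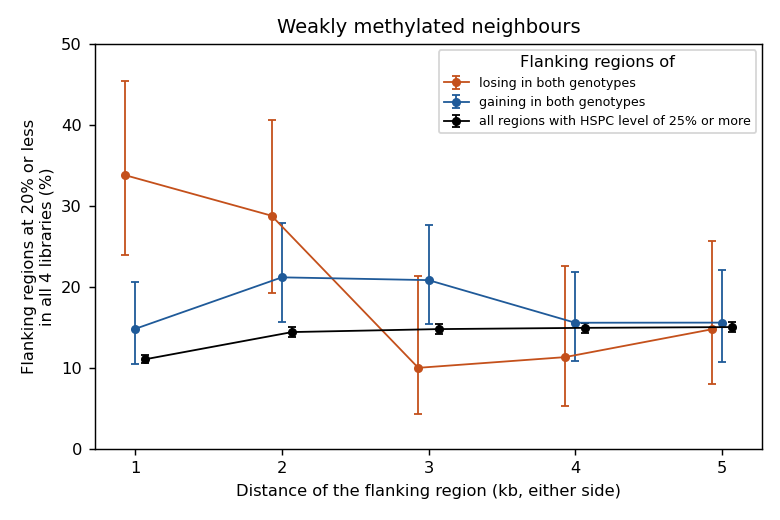
Share (%) of flanking regions at 20% methylation or less in all 4 libraries, by distance (kb, both sides), for the selected regions (orange), regions gaining methylation in both genotypes (blue) and all regions at 25% or more in both HSPC libraries (black); bars are 95% Wilson intervals over regions. The orange line is above the others at 1 kb and 2 kb and below them from 3 to 5 kb, with wide bars.

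Many neighbours at 1 kb were below 25% in HSPCs and so could not lose 25 points. The median loss was 0.05 points (wild-type) and 0.0 points (Sca1-BCL6Δ), and 31.0% of the 71 neighbours were lower in B cells in both genotypes. A loss of 25 points or more was seen at 1 of the 71 in the wild-type libraries and at 2 in the Sca1-BCL6Δ libraries, beside 1.27% and 2.4% of all eligible regions. Over 1 to 5 kb 20.4% of 294 neighbours (16.2% to 25.4%) were lower in both, against 12.5% of all eligible regions. These neighbours were not matched to all eligible regions on level. Their median was 56.0% against 68.4% for wild-type HSPCs, and 66.7% against 86.7% for Sca1-BCL6Δ HSPCs. The part of this mismatch in the higher share was not tested. Of the 294 neighbours, 7 lost 25 points or more between the wild-type libraries and 14 between the Sca1-BCL6Δ libraries. Adjacent selected regions occurred 3 times: between Tarbp1 and Irf2bp2 at chr8:129052001-129054000, between Ifngr1 and Il20ra at chr10:19379001-19381000, and between Smndc1 and Dusp5 at chr19:53516001-53518000. In the first of these the levels of the 2 regions were 71.4% and 80% in wild-type HSPCs and 31.7% and 19.5% in wild-type B cells, and 89.8% and 100% against 16.7% and 15.4% in Sca1-BCL6Δ mice. Within 50 kb of each other lay 13 pairs, with 26 selected regions, the Irf8 pair among them.

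Single reads with 3 or more CpGs show how an intermediate level is made up. In wild-type HSPCs 719 such reads fell in 78 of the selected regions, the others having none, and of these reads 46.7% were methylated at every CpG, 30.9% at none and 22.4% were mixed. In wild-type B cells 10.1% of 1263 reads were fully methylated and 67.4% unmethylated. In Sca1-BCL6Δ mice the fully methylated share was 51.9% of 422 reads in HSPCs and 7.10% of 549 in B cells, and the unmethylated share 26.8% and 74.0%. The mixed share changed little, at 22.6% in wild-type B cells and at 21.3% and 18.9% in the Sca1-BCL6Δ libraries, so that the lower B cell levels were mostly reads without any methylated CpG in place of fully methylated ones.

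Reads without a methylated CpG were present in HSPCs too. At regions of 30% to 80% methylation, 24.3% of reads were mixed in the selected regions in wild-type HSPCs (95% Wilson interval 21.1% to 27.9%), against 30.9% over all eligible regions of that level. In Sca1-BCL6Δ HSPCs it was 23.7% (19.4% to 28.6%) against 32.6%. In B cells it was 34.5% (29.0% to 40.3%) against 36.2% in wild-type and 40.7% (31.1% to 50.9%) against 36.6% in Sca1-BCL6Δ mice. These B cell values rested on 267 reads in 20 selected regions and on 91 reads in 16. At 10% to 40% methylation the mixed share in wild-type B cells was 26.3% (23.2% to 29.6%) against 20.1%. In Sca1-BCL6Δ B cells it was 24.0% (18.9% to 29.9%) against 15.7%. In HSPCs at that level it was 11.9% against 18.2% (wild-type) and 14.6% against 13.4% (Sca1-BCL6Δ). Intervals here cover the counting of reads only, since reads of a fragment can be copies made by PCR.

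**Figure D5:**
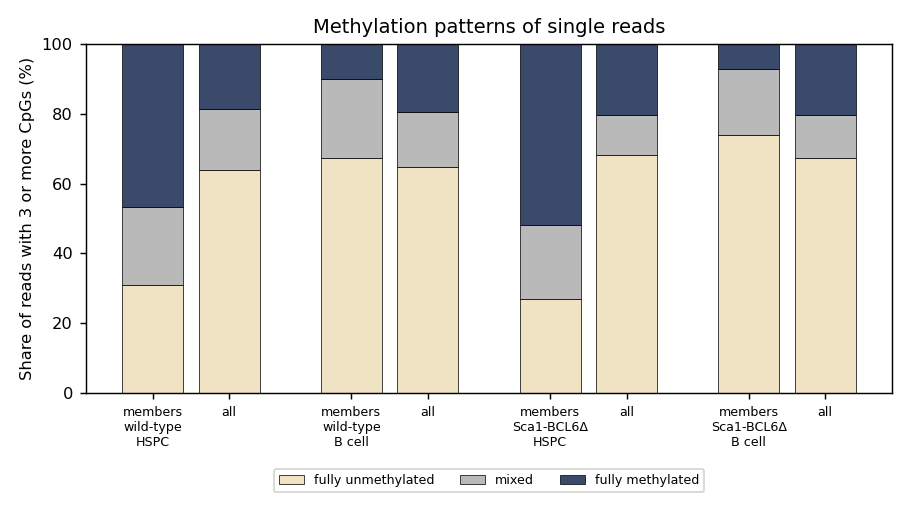
Share (%) of reads with 3 or more CpGs that were fully unmethylated (cream), mixed (grey) or fully methylated (blue) in each library, for the selected regions that had such reads (members, 75 to 79 regions per library) and for all eligible regions. In the selected regions the blue part falls from 46.7% and 51.9% in HSPCs to 10.1% and 7.10% in B cells, while over all regions it lies between 18.6% and 20.4% in the 4 libraries.

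The genotype comparison is a different contrast from that of the choice, but the choice used all 4 levels and so limits the genotype differences that the 274 regions can show. The counts below are therefore a description. The comparison was made with Fisher's exact test on reads of CpGs more than 50 bp apart, taken among CpGs read in each library. It was adjusted by Benjamini-Hochberg over all eligible regions. A region was called when the adjusted p was under 0.05 and the levels were 20 points or more apart. Such a test compares the reads of 2 pooled libraries, not the genotypes. In HSPCs 0 of the 274 regions were called, with 14 calls among all regions tested (0.0149%). Among the 274, 10 (3.65%) had an unadjusted p under 0.05, against 8.93% of all regions. The median difference, Sca1-BCL6Δ minus wild-type, was 3.92 points in the selected regions and 7.38 over all eligible regions.

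In B cells 0 of the 274 were called by the same Fisher's exact test, with 1 call among all (0.00106%), and 9 (3.28%) had an unadjusted p under 0.05, against 3.05% of all. The median difference was -2.52 points, against 0.0 over all regions. The difference of the genotype effects between the cell types, tested as a z of the log odds ratios, gave 0 calls in the 274 and 3 among all (0.00319%), with 5 (1.82%) at an unadjusted p under 0.05, against 4.51% of all. With the reads of all CpGs summed, a read counts once for each CpG it covers. Fisher's exact test then called 5 of the 274 in HSPCs (1.82%, against 4.80% of all regions) and 0 in B cells (against 0.657% of all). The z test called 1 of the 274 (0.365%, against 1.16% of all). At these depths Fisher's exact test could find little: of 200 simulated regions changed by 50 points in HSPCs, it recovered 8.5%. Recovery in B cells and by the z test was not simulated. The absence of calls is thus no sign that the genotypes were alike at these regions.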

How the data were processed

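The authors deposited, per sample, CpG methylation as a score beside a pair of methylated and total counts, and reads with a percent methylated and counts of their CpGs, on mm9 per the labels. Per the study's deposited methods text, alignment used a proprietary Zymo Research pipeline keeping unique best matches, with fixed-size fragment ends as the reference; its version is not given in the sources used here. Libraries were TaqI and MspI digests amplified by PCR, without molecular identifiers, so intervals cover counting error only. Groups followed the sample titles.

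CpG counts were summed in 1 kb regions, so that 1 read counts once per CpG: the 274 regions had a median of 17 (HSPCs) and 30 (B cells) separate reads in wild-type mice and 12 and 15.5 in Sca1-BCL6Δ mice, and as few as 3. Fisher's exact tests and z tests (0.5 added to each cell) ran in SciPy 1.17.1 under Python 3.11.15 with pandas 2.3.3, and figures in matplotlib 3.10.9. Fisher's exact test was tried on simulated data, where 0 of the unchanged regions among 94005 were called. The z test was not tried on simulated data. Named regions were the 15 with the largest smaller loss at 20 or more reads in each library, the 5 deepest, adjacent regions and the 3 on each side of the limit. The members and lists were chosen with earlier results of these data known.

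Gene names, which the naming rule had left to a table of the same build, were obtained after the data were seen. RefSeq promoter sequences (GRCm38.p6, 250 bases before to 50 after the start) were placed on the mm9 CpG positions by an exact match of their CpG spacing on the same chromosome, needing 5 matched CpGs, or 2 beside a placed neighbour. This placed 9369 of 21900 coding genes. The gene table gave only names and gene order. Of the 274 regions, 236 had a placed start within 250 kb, and no coordinates of GRCm38.p6 are given. The deposited score column, which repeats the methylated share of each CpG, was not used.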

Additional observations from a re-analysis of the deposited data

How the results depend on the processing

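The number of selected regions depended on the depth limit, the size limit and the reference library. It was 576 of 155999 eligible regions at 5 CpG reads and 85 of 43339 at 20. It was 179 of 58824 with CpGs more than 50 bp apart, taken among those read in each library. At a limit of 20 points it was 509, at 40 points 86, and with the Sca1-BCL6Δ HSPC library as the only reference 812. An alternative chosen after seeing the data, 10 separate reads in each library, gave 178 of 66257 eligible regions, or 0.269%. The mean of CpG levels gave 393, with 212 of the 274 among them, and CpGs read in every library, also added after seeing the data, gave 279 with 245 among them at the same depth limit. The share chosen on Sca1-BCL6Δ that passed in wild-type was 10.5% at 5 reads, and its other alternatives, like those of the reverse choice, stayed inside the interval of the main value. With all CpGs summed, 5 selected regions were called between genotypes in HSPCs (1.82%, against 4.80% of all regions). For the difference between cell types 1 was called (0.365%, against 1.16% of all). With 20 reads, 27.4% of 175 neighbours were lower in both genotypes. The smaller loss turned to -20.0 points at chr3:101090001-101091000 with the mean of CpG levels. With spaced CpGs it turned to -8.97 at chr7:17428001-17429000 and to -1.54 at chr4:151932001-151933000. Spaced CpGs were taken only among those read in each library, which leaves fewer reads. At chr7:17428001-17429000 only 1 CpG was read in each library. Of 28 named regions, 24 kept at least 25 points with spaced CpGs, the other 4 including chr4:8462001-8463000 at 14.5 and chr14:22807001-22808000 at 14.1, and 25 kept them with the mean of CpG levels. No paired analysis was possible because each group had 1 library. The limits are 1 pooled library per condition, a median of 17 to 49 CpG reads per selected region and library, and gene names for placed promoters only.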
